A study of Daphnia magna with 40 samples.

Results

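Fluoxetine in adult Daphnia magna was set against the acetone carrier on 8 of the 40 arrays of the series, 4 from adults exposed to fluoxetine at 40 µg/L (FX40) and 4 from adults given acetone. These arrays were taken by their stage and treatment labels, and every non-control probe of the array entered, 14338 in all. The animals were gravid females of clone F, a single laboratory line kept by parthenogenesis. They were 8 to 9 days old at the start and stayed in the exposure over 3 broods, or 10 to 14 days. Eggs were flushed from the brood pouch before the females were frozen, and RNA of the whole animal was hybridised with the dye Cy3 to one-colour Agilent arrays. The chemicals were dosed in acetone at 0.1 ml/L. The other adult groups, 4 arrays each, received fluvoxamine at 10 µg/L (FV10) or nonylphenol at 20 µg/L (NP20) or 60 µg/L (NP60). Juveniles with the same fluoxetine and acetone labels, exposed for 3 days, gave 8 further arrays. Doses follow the labels of the samples, whereas the series description names 80 ppb for fluoxetine, and which value applied is not settled.

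Fluoxetine is an antidepressant that blocks the serotonin transporter, the protein that takes serotonin back up from the space between nerve cells. Daphnids have serotonergic neurons, and an adult female carries her developing clutch in a dorsal brood pouch while she moults and prepares the next brood. A whole-animal extract therefore mixes RNA of the ovary, gut, fat body, muscle, carapace and nervous system, and fewer cells of a type cannot be told apart from less RNA per cell. The study set out to relate serotonin disruption to energy metabolism, development and reproduction.

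The probes carry array IDs, which the files pair neither with genes nor with sequences, and 0 of 14338 matched the gene table used here. Probes are therefore given by ID, at most 2 higher and 2 lower per comparison, and no gene function or tissue marker could be read from them. Levels are log2 of the processed signal minus the 75th percentile of the array, so that 0 is the signal at that percentile. A positive change means a higher level in FX40. The labels do not say how many females made a sample or whether the replicates were kept apart. The p-values therefore reflect the spread among these samples only, and that spread may be technical.

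Array quality was compared between the groups by 5 measures, none of which had an adjusted p under 0.05 in exact permutation tests. The 75th percentile of the signal was 8.45 ± 0.34 on the log2 scale in FX40 and 7.38 ± 0.74 in acetone (SD, n = 4 each), and the ranges did not overlap (two-sided exact permutation p = 0.0286, the smallest possible, 0.0952 after adjustment over 5 measures). The share of probes well above background was 73.5% to 84.0% on FX40 arrays and 51.8% to 75.7% on acetone arrays (exact permutation p = 0.0571). The median log2 gap between duplicate spots averaged 0.32 in FX40 and 0.37 in acetone (exact permutation p = 0.629). Acetone E was the dimmest array, and acetone G had 1379 spots marked as outliers where the other 7 had 6 to 44. Per the file headers, multiplicative detrending, which evens out signal across the array surface, had not been applied to acetone F and G, while it had been applied to the other 18 adult arrays. The correlation between any 2 of the 8 arrays lay between 0.807 and 0.956, so no array was a copy of another.

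Fluoxetine was first compared with the carrier. In FX40, 48 of 12544 tested probes (0.383%) differed from acetone in limma at an adjusted p under 0.05. Of these, 14 were higher (0.112% of all tested) and 34 were lower (0.271%). The higher probes had changes of 1.22 to 2.23 (median 1.68), and the lower ones of -7.84 to -1.07 (median -1.77). The median change over all tested probes was 0.05. With the replicate letter as a block, which these groups share in part, the count was 0, although all 48 kept their direction at medians of 1.69 and -1.56. Among the calls, 11 were lower by 4-fold or more and 3 were higher by as much, and over all tested probes 83 were lower and 67 higher by that size. At an unadjusted p under 0.05 there were 1873 probes (14.9%), 826 higher and 1047 lower. The median 95% half-width of a single change was 0.97.

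**Figure D1:**
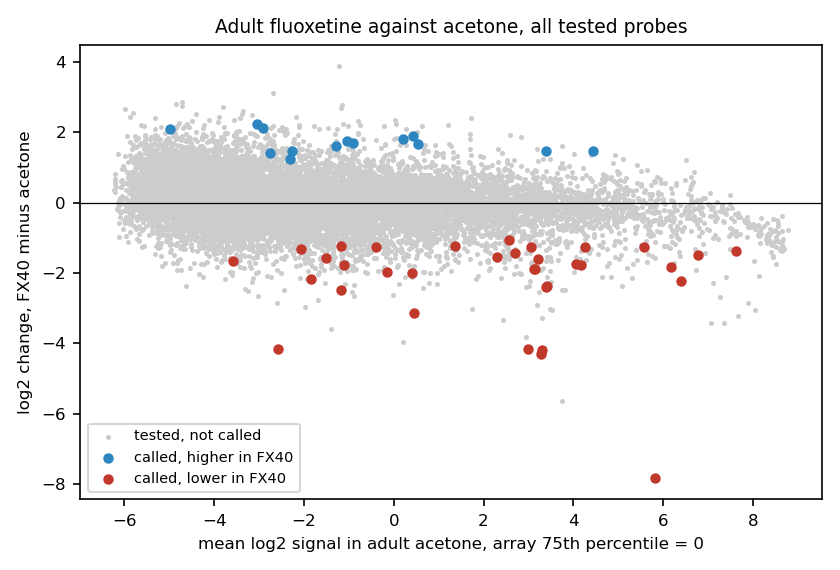
Log2 change of FX40 against acetone (vertical axis) by the mean level of the probe in adult acetone (horizontal axis, log2 with the 75th percentile of the array at 0), 1 point per tested probe. The 34 lower calls (red) reach down to -7.84 and lie mostly among bright probes, whereas the 14 higher calls (blue) end at 2.23.

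DM08009P2 was the called probe with the largest fall among those measured well above background and unsaturated on all 8 arrays with groups that did not overlap. Its level was 3.07, 2.81, 4.73 and 2.48 on acetone arrays B, E, F and G. On FX40 arrays B, C, F and G it was -1.93, -0.24, -2.80 and 0.81. All 4 FX40 values lay below the lowest acetone value, yet they spread over more than 3 log2 units, with G highest and F lowest. The group means were -1.04 ± 1.63 and 3.27 ± 1.00 (SD, n = 4 each), a change of -4.31 (SE 0.74, limma adjusted p = 0.0185, or 0.141 with the letter as a block). Within slides, where 1 array of each group met, it was -3.92 on slide 3 and -5.28 on slide 4.

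DM09557P1 behaved much alike. Acetone arrays B, E, F and G read 3.28, 3.2, 4.48 and 2.29, and FX40 arrays B, C, F and G read -1.47, -0.18, -3.10 and 1.24. The groups again did not overlap, and FX40 G was again the highest and FX40 F the lowest of the exposed arrays. The change was -4.19 (SE 0.76, limma adjusted p = 0.0203, or 0.155 with the letter as a block), and -3.24 and -5.39 within slides 3 and 4. On both probes acetone F was the highest and acetone G the lowest control.

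**Figure D2:**
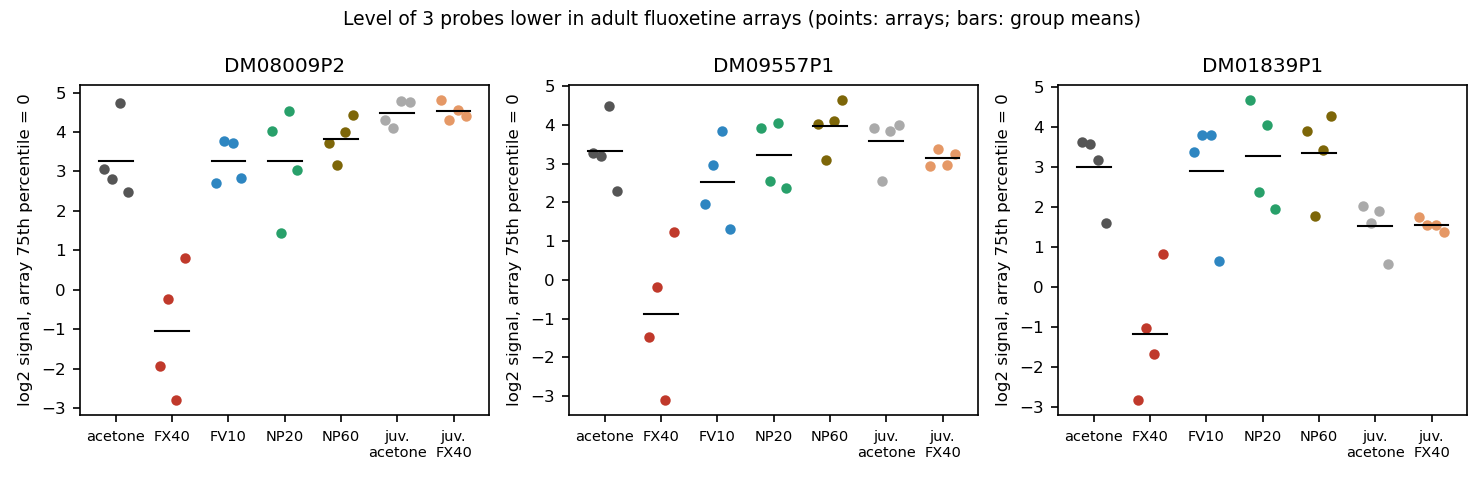
Level (log2, 75th percentile of the array at 0) of 3 probes by group, with 1 point per array and bars at the group means. In each panel the 4 FX40 arrays lie lower than the 4 adult acetone arrays, down to -3.10 for DM09557P1, while the juvenile FX40 arrays stay near the juvenile acetone arrays.

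The 34 lower probes were measured far from the background limit more often than probes in general. Of them, 26 were well above background on all 8 arrays, against 44.4% of all tested probes, and 24 had an acetone level above 0, against 27.3%. None of the 48 called probes was saturated on any of the 8 arrays, where 120 tested probes were. The 4 values of FX40 lay beyond the 4 of acetone for 28 of the 34, and 6 more lacked a value on an array. Among all probes with complete values this was so for 842 of 11263 (7.48%). The same arrays chose the called probes, and a fall is hard to see in a probe near background. These counts and shares are therefore a description only.

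The spread among FX40 arrays is given apart for large and moderate falls. The 11 probes that were lower by 4-fold or more, the large falls, had a median change of -3.14 and a median SD of 1.26 among FX40 arrays, against 0.83 among acetone arrays. The 23 others, the moderate falls, had a median change of -1.54 with SDs of 0.33 and 0.30, where the medians over all tested probes were 0.55 and 0.62. A smaller change is called only at a smaller spread, so the choice of probes favours these SDs and they are a description only. The median distance of the 34 probes from the acetone mean was -1.92, -1.68, -1.60 and -1.70 on FX40 B, C, F and G. These arrays chose the probes, which favours a value below the acetone mean on each of them. FX40 B had the lowest of the 4 values on 14 of the 34 probes, and FX40 G had the highest on 16.

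Change also moved with brightness over the whole array. The median change was 0.11 in the 2861 tested probes whose mean level over both groups was at or below -4. It was -0.17 in the 448 probes between 4 and 6, and -0.51 in the 209 above 6, of which 82.8% had a negative change. Of the lower calls 5 had a mean level above 4, and the part of this trend in their falls was not tested.

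The higher probes were dimmer. Their median acetone level was -1.16, against 3.02 for the lower calls and -2.19 for all tested probes. Of the 14, 6 were well above background on all 8 arrays, 9 did not overlap between groups, and 5 lacked a value on an array. Over all tested probes 44.4% were well above background on all 8, and 7.48% of those with complete values did not overlap. The choice of probes on these arrays favours a lack of overlap, so the counts are a description only. FX40 B had the highest of the 4 exposed values on 10 of them. DM03220P4 read 0.62, 0.04, 0.81 and 0.28 on acetone arrays B, E, F and G and 2.95, 2.0, 1.76 and 2.55 on FX40 arrays B, C, F and G. These ranges lay apart, and the change was 1.88 (SE 0.34, limma adjusted p = 0.0203). DM09763P1 read -1.34, -0.84, -0.52 and -0.94 in acetone and 1.36, 0.29, 0.37 and 1.14 in FX40, in the same order of arrays. All FX40 values were positive and all acetone values negative, with a change of 1.70 (SE 0.27, limma adjusted p = 0.0185). With the letter as a block the adjusted p was 0.0799 for DM03220P4 and 0.0801 for DM09763P1. Within slides 3 and 4 the changes were 1.74 and 1.48 for DM03220P4 and 1.66 and 1.31 for DM09763P1.

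Higher and lower calls lay in different places on the array. A probe has its spot in 1 of 192 rows. The 16 outermost rows at each end, a band chosen after the values were seen, held 7 of the 14 higher calls and 0 of the 34 lower ones, against 16.2% of all tested probes. DM03220P4 and DM09763P1 lay there, in rows 186 and 187. The median change of all tested probes was 0.35 in the outer rows and -0.0024 in the others. Each adult array was read by the median deviation of its probes from their adult mean, in the outer and the other rows. On acetone F and G, the controls without multiplicative detrending, this deviation was lower in the outer rows by 0.62 and 0.21. The difference, outer minus other rows, ran from -0.16 to 0.24 on the other 18 adult arrays.

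**Figure D3:**
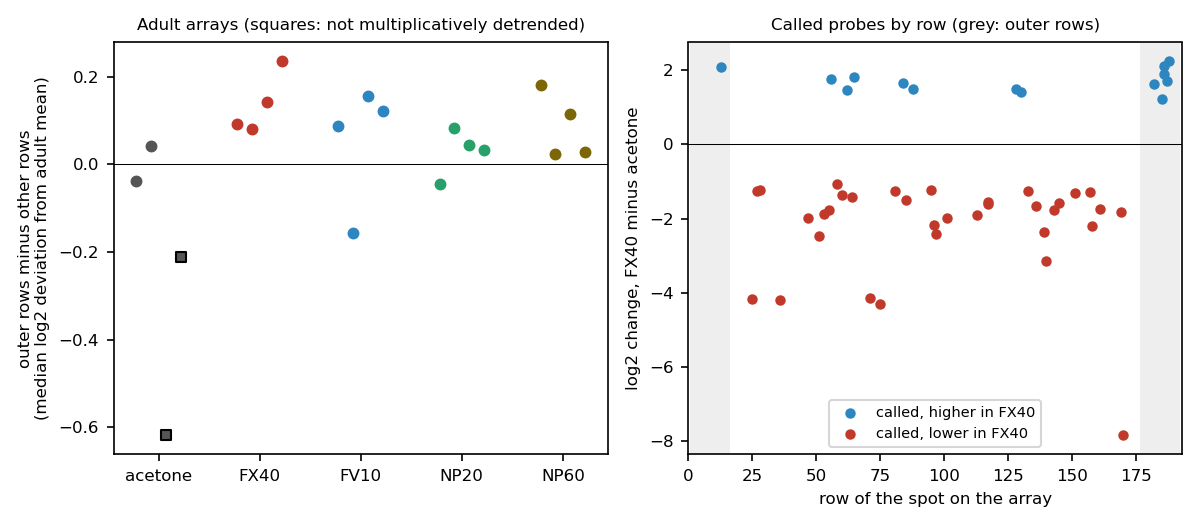
Left, median log2 deviation of probes in the outer rows minus that of the other rows, 1 point per adult array, with the arrays not multiplicatively detrended as squares. Right, log2 change of the 48 called probes by row of the spot, with the outer rows in grey, where 7 higher and 0 lower calls lie.

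With the median of each of 96 array regions removed, the change of DM03220P4 was 1.25 (adjusted p = 0.125) and that of DM09763P1 1.29 (0.0625). DM08009P2 and DM09557P1 then stood at -4.12 (0.0343) and -4.18 (0.043). After this step 40 probes were called, 13 higher and 27 lower, and they included 10 of the 11 large falls, 19 of all 34 falls and 5 of the 14 rises. In the signal before multiplicative detrending 10 were called, 4 higher and 6 lower. With only the detrended arrays 140 were called, 64 higher and 76 lower, among them 36 of the 48. All 48 kept their direction in each of these 3 fits, which were added after the data were seen.

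The calls against acetone rested on few arrays and on the design of the fit. With the replicate letter as a block 1639 probes had an unadjusted p under 0.05. With the 8 arrays alone the count was also 0 (1439 unadjusted), with slide as a block 0 (1499) and with brightness of the array as a covariate 0 (970). The 8-array fit takes the same group means as the main fit, so its changes (medians 1.68 and -1.77) are equal by construction. All 48 probes kept their direction in the other 2 fits, with medians of 1.76 and -1.69 for slide and 1.63 and -1.30 for brightness. These probes were chosen on the same arrays, so their direction is a description only. With slide as a random instead of a fixed block, 43 probes were called, 13 higher and 30 lower, all among the 48. The correlation within slides in that fit was -0.0335. The count was 1 without acetone B, 1 without acetone E, 26 without acetone F, 330 without acetone G. Leaving out FX40 B, C, F or G gave 2, 20, 58 or 30. Of 25 alternatives, the call held in 16 for DM08009P2, in 14 for DM09557P1 and in 13 each for DM03220P4 and DM09763P1. All 4 lost it without acetone B, acetone E or FX40 B, DM03220P4 also without FX40 G and DM09557P1 without acetone F. Normexp background correction, which models signal and background jointly, gave -2.53, -2.35, 1.42 and 0.42 for these probes, the last of them past the threshold no longer (adjusted p = 0.226). In that fit 7683 of 12544 probes were called at an overall median change of -0.94, so a call kept there says little.

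Fluoxetine was then compared with the 12 adult arrays of the other exposed groups, which leaves the acetone arrays out of the contrast. FX40 differed from their mean at 8 of 12544 probes (0.0638%), 1 higher (0.00797%) and 7 lower (0.0558%), with 836 (6.66%) at an unadjusted p under 0.05. With the replicate letter as a block the count was 0 (741 unadjusted). Leaving out single FX40 arrays gave 0 without B, 1 without C, 0 without F and 6 without G. The count was 1 without NP60 A, 3 without FV10 A, FV10 E, NP60 F or NP60 H, and 5 without FV10 B, NP20 B, NP20 E or NP20 G. Of the 7 lower probes, 5 were also called against acetone. On 4 of the 8 probes, FX40 did not overlap with the 12 other arrays, as on 25 of 12354 probes with complete values (0.202%).

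The naming rule again gave DM08009P2 and DM09557P1, although 3 other called probes had falls larger than that of DM09557P1. DM08009P2 had 2.71, 3.77, 3.72 and 2.84 in FV10, 4.02, 1.43, 4.53 and 3.03 in NP20, and 3.71, 3.15, 3.99 and 4.44 in NP60. The lowest of these, NP20 C, still lay above the highest FX40 value of 0.81. The change was -4.49 (SE 0.60, limma adjusted p = 0.00861), or -4.19 without FX40 B (0.059) and -3.90 without FX40 F (0.0508). With the letter as a block it was -4.48 (0.59). DM09557P1 had 1.96, 2.95, 3.83 and 1.32 in FV10, 3.91, 2.56, 4.04 and 2.36 in NP20 and 4.02, 3.1, 4.09 and 4.65 in NP60. Its lowest value, in FV10 H, lay just above the 1.24 of FX40 G, and the change was -4.11 (SE 0.62, limma adjusted p = 0.0207). Without FX40 B, C or F this adjusted p was 0.0799, 0.0726 or 0.0904, and without NP60 A 0.0508. With the letter as a block it was 0.619.

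The only higher call, DM05683P1, was dim. It read -2.40, -2.41, -1.98 and -2.42 in FX40 and was well above background on all 4 of these arrays. It was well above background on 2 of the 12 other exposed arrays, whose values ran from -5.28 to -3.21, and on 2 of 4 acetone arrays, from -4.69 to -2.35. FX40 did not overlap with the other exposed arrays, but acetone G reached into the FX40 range. The change was 2.03 against the exposed groups (SE 0.35, limma adjusted p = 0.0399) and 1.30 against acetone (0.157). Its size is uncertain, since most of the compared values were not well above background. It kept that call in 9 of 28 alternatives, and normexp correction gave 0.24. With the letter as a block the limma adjusted p was 0.757.

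**Figure D4:**
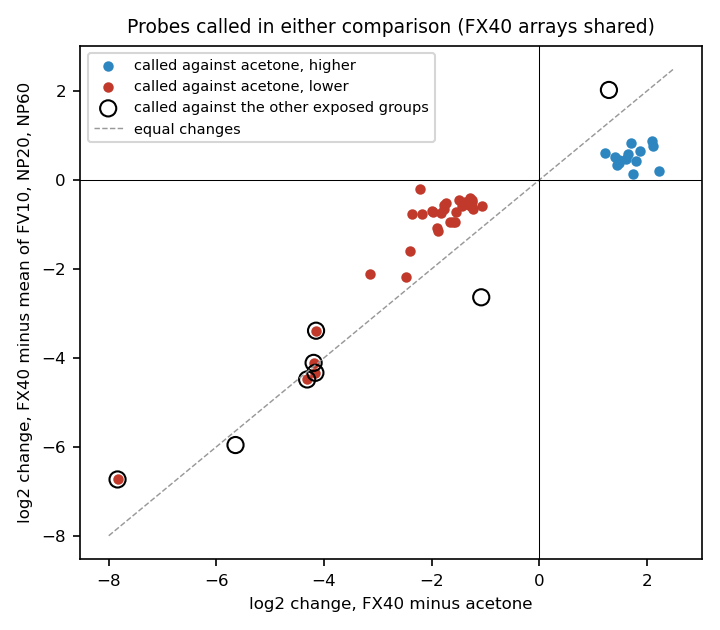
Log2 change of FX40 against acetone (horizontal axis) and against the mean of FV10, NP20 and NP60 (vertical axis) for the probes called in either, 1 point per probe, with calls of the second comparison circled. The FX40 arrays enter both axes, and the largest falls lie near the line of equal changes while moderate falls and rises lie closer to 0 on the vertical axis.

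The calls against acetone were read in this second contrast by size. Of the 11 large falls, 5 were called against the other exposed groups, and their median change there was -2.19. The 23 moderate falls had 0 calls, 21 unadjusted p-values under 0.05 and a median of -0.61. The 14 rises had 0 calls (8 unadjusted) and a median of 0.50. Both contrasts use the FX40 arrays, so a shift in the same direction is built in. Against acetone, the rises had median changes of 1.09 in FV10, 1.27 in NP20 and 0.97 in NP60, and the moderate falls of -0.73, -0.92 and -0.78. For the large falls these were -0.82, -0.95 and -0.08. The acetone arrays that chose the probes enter each of these values.

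Against single groups the doses were not matched. FX40 differed from NP60 at 3 probes (0.0239%), all lower, with changes of -4.86 for DM08009P2 and -4.85 for DM09557P1 (limma adjusted p = 0.0371 each), and 4.63% of probes had an unadjusted p under 0.05. Outside the naming rule, DM07014P1 was named after its values were seen and had the largest change of the 3, at -7.76 (limma adjusted p = 0.0435). With the replicate letter as a block 0 were called (553 unadjusted). Limma called 0 probes against FV10 (1022 or 8.15% at an unadjusted p under 0.05, smallest adjusted p 0.169) and 0 against NP20 (831 or 6.62%, 0.106). Both counts were also 0 with the letter as a block (578 and 779 unadjusted). The median half-width of a difference from FV10 was 0.96, for a single test without adjustment, and the lack of a call does not show that the groups were alike. DM08009P2 had the smallest p in both, at changes of -4.30 (95% interval -5.84 to -2.75) from FV10 and -4.29 (-5.84 to -2.75) from NP20. DM09557P1 stood at -3.40 (-5.00 to -1.79) and -4.10 (-5.70 to -2.49).

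The third question was whether fluoxetine acted alike in adults and juveniles. The adults were exposed for 10 to 14 days and the juveniles for 3, so stage cannot be told apart from length of exposure. The difference between the 2 effects, tested as an interaction over all 40 arrays, was called at 59 of 13278 probes (0.444%), with 1774 (13.4%) at an unadjusted p under 0.05. The adult change was the higher at 12 probes (0.0904%) and the lower at 47 (0.354%), and the signs were opposite in 54 of the 58 probes tested in both stages. The probes were chosen for a difference between the changes, which favours opposite signs, so these signs are a description only. With the replicate letter as a block 21 were called, 6 higher and 15 lower. In the same fit juvenile FX40 differed from juvenile acetone at 0 probes (970 unadjusted, 7.3%). Juvenile acetone D, a control in the interaction, and juvenile NP60 A had not been multiplicatively detrended either. Over all tested probes 47.2% had the same sign in both stages.

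**Figure D5:**
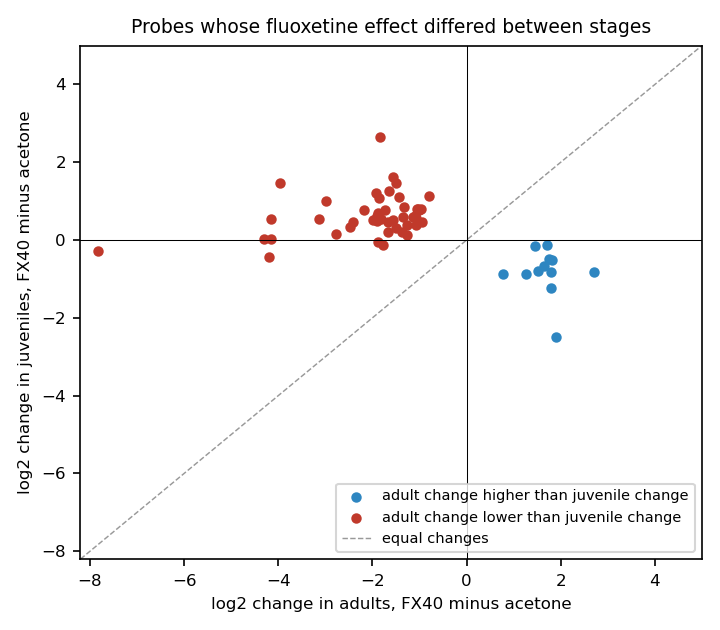
Log2 change of FX40 against acetone in adults (horizontal axis) and in juveniles (vertical axis) for 58 of the 59 probes called for a difference between the stages, 1 point per probe, the other being untested in adults. The choice of probes favours opposite signs, which 54 have.

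The probes with lower adult effects had a median change of -1.71 in adults and 0.56 in juveniles. For DM08009P2 the juvenile level was 4.30, 4.10, 4.79 and 4.76 in acetone and 4.82, 4.31, 4.55 and 4.41 in FX40. The juvenile groups overlapped, at a change of 0.04 (95% interval -1.11 to 1.19), and the adult change was lower by 4.35 (interaction -4.35, SE 0.80, limma adjusted p = 0.0148). This call was lost with normexp correction (adjusted p = 0.142), with brightness as a covariate (0.329) and without juvenile FX40 A (0.0513), and held in the other 26 of 29 alternatives. DM01839P1, another of the large adult falls, read 3.64, 3.57, 3.17 and 1.60 in adult acetone and -2.81, -1.02, -1.67 and 0.83 in adult FX40. The adult groups lay apart, with G the lowest control and G the highest exposed array. Its juvenile values were 2.02, 1.59, 1.89 and 0.58 in acetone and 1.75, 1.54, 1.56 and 1.38 in FX40, and the interaction was -4.20 (SE 0.97, limma adjusted p = 0.0401). It kept the call in 11 of 29 alternatives.

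On the higher side the median change was 1.72 in adults and -0.81 in juveniles. DM05227P1 read 0.45, 0.15, -1.53 and -1.84 on adult acetone arrays B, E, F and G and 1.78, 0.66, 1.04 and 0.96 on adult FX40 arrays. The low controls F and G were the adult arrays without multiplicative detrending, and the spot lay in row 192, at the edge. In juveniles it read -0.54, -1.90, -1.88 and -1.10 in acetone and -2.73, -1.93, -3.04 and -2.62 in FX40. The adult groups did not overlap, the juvenile groups were narrowly apart in the opposite direction, and the interaction was 3.03 (SE 0.72, limma adjusted p = 0.0424). With only the detrended arrays it was 1.95 (adjusted p = 0.126). DM04810P1 read -1.16, -0.97, -1.25 and -0.03 in adult acetone and 0.94, 0.43, -0.02 and 0.30 in adult FX40. Acetone G came within 0.02 of FX40 F, and the interaction was 2.14 (SE 0.49, limma adjusted p = 0.0382). The call held in 12 of 29 alternatives for this probe and in 10 of 29 for DM05227P1. The adult change of FX40 against acetone was itself not called for DM05227P1 (1.80, limma adjusted p = 0.0828) or DM04810P1 (1.27, 0.0718). Against adult acetone, FV10, NP20 and NP60 also stood higher, by 1.25, 1.22 and 1.40 for DM05227P1 and by 1.01, 1.19 and 0.78 for DM04810P1. The adult acetone arrays enter each of these values.

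Of the 59 probes, 25 were also called in adults in the same direction. The large adult falls made up 9 of these, at a median juvenile change of 0.33 over all 11. The moderate falls made up 11 and the rises 5. The adult arrays enter both tests, so this overlap is not independent. With brightness of the array as a covariate 0 probes were called for the interaction (911 unadjusted), and without juvenile FX40 A also 0 (1450 unadjusted). The count was 5 without adult acetone E, 196 without adult acetone G, 38 without B and 39 without F. It was 39 without adult FX40 B and 118 without adult FX40 F. In juveniles it was 8 without FX40 C and 6, 97, 28 and 34 without acetone A, B, C and D.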

How the data were processed

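Whole adult Daphnia magna were measured on one-colour arrays, and the scanner files hold an intensity per spot. Per the file headers, the deposited processed intensity had been background-subtracted and, on 18 of 20 adult arrays, multiplicatively detrended by Agilent Feature Extraction 10.7.3.1. A deposited table of all samples gives log2 values centred per probe, with adult column medians from -0.0984 to 0.106. Set against probe-centred scanner values, its adult columns correlated at 0.923 to 0.989, with the same direction. Further steps behind it are not stated, and it served as an alternative.

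From the scanner files, control spots and spots marked as outliers were left out, spots of a probe were averaged, and log2 of the processed signal minus the 75th percentile of the array was taken. Testing required a probe to be well above background on 4 or more arrays in the fit. Linear models were fitted with limma 3.58.1 (lmFit, eBayes; R 4.3.3) to the 20 adult arrays, or all 40 for the stage interaction, and p-values were adjusted over all tested probes after Benjamini and Hochberg, with a threshold of 0.05. The procedure was tested on simulated data. Single array measures were compared by two-sided exact permutation tests. The number of arrays limits the precision.

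The rule for naming took at most 2 higher and 2 lower probes per comparison. These had the largest change among called probes that were well above background and unsaturated on all arrays compared, with complete values and no overlap. Gaps were filled by the smallest p among called, non-overlapping probes above background on the higher group's arrays. For the interaction, overlap was judged in adults. The groups and lists were chosen with earlier results of these data known.

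Deviations of FX40 and acetone arrays with the same replicate letter correlated at 0.266 (B), 0.202 (F) and 0.315 (G). With NP20 these were 0.116 (B), 0.173 (C) and 0.230 (G), with NP60 0.188 (C) and -0.0246 (F) and with FV10 0.0395 (B), while unlike letters of FX40 and acetone gave -0.286 to 0.195. By a limit of 0.1 in every one of 3 pairs, letters were taken to pair FX40 with acetone and with NP20 only. This limit does not set like letters apart, since unlike letters of FX40 and acetone reached 0.195. NP20 G and FX40 G also shared slide 3, so letter and slide cannot be told apart there. Counts with the letter as a block are given for every comparison. The labels do not say what a letter stands for. Arrays lay on 7 slides, each scanned once. Alternatives included normexp correction with an offset of 50 (on the median spot signals), quantile normalization, the deposited table, other filters, only the arrays compared, slide, brightness or letter as a term, array weights, outlier spots kept and arrays left out. Those on array position, detrending and choice of controls were added after the data were seen. Sequences and genome positions of the probes were not used here.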

Additional observations from a re-analysis of the deposited data

Results flagged for a closer look

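Among 66 sets of 4 arrays examined, 7 held an array far from the other 3 by Dixon's criterion (a gap to the next array that takes up most of the range), where chance gives about 1 in 20. The acetone array E had a log2 75th percentile of 6.27, far below the other acetone arrays, and acetone G had 1379 outlier spots. Both arrays move the counts of calls given in the comparison with acetone. Single values that stood apart were those of DM03220P4 in adult NP60 A (0.51), DM09557P1 in juvenile acetone B (2.56), DM05683P1 in adult FX40 F (-1.98), DM05683P1 in juvenile FX40 B (-6.25) and DM01839P1 in adult FV10 H (0.64). The value of DM05683P1 in juvenile FX40 B was not well above background, and that of DM01839P1 in FV10 H lay within the range of the FX40 arrays.

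The effect of fluoxetine differed between adults and juveniles at 59 probes in the limma interaction test, where length of exposure differed along with stage. This count ran from 0 to 766 over the alternatives and was 21 with the replicate letter as a block. The difference, adult minus juvenile change, was -4.35 for DM08009P2 (limma adjusted p = 0.0148), -4.20 for DM01839P1 (0.0401) and -3.75 for DM09557P1 (0.0405). It was 3.03 for DM05227P1 (0.0424), 2.14 for DM04810P1 (0.0382) and 1.82 for DM09763P1 (0.0411). With the letter as a block, probes named for the interaction had limma adjusted p of 0.046 (DM08009P2), 0.119 (DM01839P1), 0.0972 (DM05227P1) and 0.113 (DM04810P1).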

How the results depend on the processing

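The number of probes called against acetone (48) was 7683 with normexp correction, 228 with quantile normalization, 30 in the deposited table, 186 among probes well above background on all 8 arrays, 996 with array weights and 21 with outlier spots kept. It was 0 with only the 8 arrays, with the replicate block, with array brightness in the model and with slide as a block. It was 10 before multiplicative detrending, 140 with only detrended arrays, 9 with acetone F and G as the only controls and 0 leaving out acetone E and G. Single arrays left out gave 1 to 330. Normexp gave 1228 higher and 6455 lower and shifted the overall median from 0.05 to -0.94, and 39 of the 48 kept their direction. Quantile normalization gave 32 higher and 196 lower (median -0.06), and acetone F and G alone gave 8 and 1. The count against the other exposed groups (8) was 5 with normexp and with quantile normalization, both 0 higher and 5 lower, 4 with the stricter filter, 1 with slide as a block, 5 with brightness, 0 with the replicate block and 0 to 7 with arrays left out. The count against NP60 (3) was 0 with the replicate block. The interaction count (59) was 9 with normexp (8 higher, 1 lower), 148 with quantile normalization (19 and 129), 3 with slide as a block, 0 with brightness, 21 with the replicate block, 766 with array weights, 104 with region medians removed and 0 to 196 with arrays left out. Region medians left the other 2 counts at 40 and 6. With slide as a random instead of a fixed block, the counts were 43 against acetone, 8 against the other exposed groups and 62 for the interaction. The named probes kept their direction in all 302 values and missed the threshold in 129 of them. Some alternatives change only the filter or the arrays that estimate the spread, so the change and its direction are fixed there. The cause of these changes was not tested. Dropping arrays leaves fewer samples, and the 8-array fit estimates the spread from fewer arrays, but the part of this in the counts was not tested either. Levels near background limit the dim probes, and 1195 tested probes had no value on acetone G.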
